A study of Mus musculus with 6 samples.

Results

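The 48 genes described here encode proteins of neurons: synaptic vesicle and release proteins, dense-core granule proteins, cytoskeletal and growth proteins, RNA-binding proteins, transcription factors, adhesion and surface proteins, and enzymes and transporters of neurotransmitters. They were chosen by symbol, with earlier results of these data known, and all 48 were found among the 24503 gene symbols of the count table. The RNA came from mouse neural stem cells of the E13.5 cortex, a primary culture that was first enriched in neurospheres and then grown on laminin in the presence of FGF and EGF. The knockout cells (KO, n = 3 libraries) carried Phf2 flox/flox alleles and the Nestin-Cre transgene of the strain B6.Cg-Tg(Nes-cre)1Kln/J. The control cells, which the labels call wild type (WT, n = 3 libraries), carried Phf2 flox/flox alleles without Cre. Both groups were thus floxed, and only KO cells held Cre, so that loss of Phf2 and presence of Cre cannot be told apart in this design. The comparison asks how transcript levels differ when Phf2, a Jumonji-family histone demethylase, is deleted in neural progenitors, where the Nestin transgene drives Cre. Phf2 itself was measured at 51.1 ± 4.56 CPM (counts scaled to library size) in KO and 92.3 ± 15.5 CPM in WT (SD, n = 3). Its log2 fold change in edgeR was -0.85 ± 0.150 (SE) and was not called (adjusted p = 0.182). With the replicate number as a block, described below, it was -0.84 ± 0.0743 (adjusted p = 0.000123 in edgeR). The Phf2 counts span the whole gene, and reads from exons outside the floxed part are included.

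Neural stem cells divide and do not form synapses, and most genes of the synapse and the axon are raised when a progenitor becomes a neuron. A vesicle is filled by transporters, docked by SNARE proteins such as Snap25 and Vamp2, and released when synaptotagmins sense calcium. In cells that are not neurons many of these genes are held low by the repressor REST, which binds a DNA element named RE1, while genes of dense-core granules are known targets of CREB, which binds the cAMP response element (CRE). A number of the genes are also used outside neurons: Rbfox2 and Ncam1, for example, are transcribed in many dividing cell types.

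Within each group the library numbered 1 stood apart from the libraries numbered 2 and 3. Total counts were 33413444 to 46890314 per library. Across the 13683 genes that passed the filter on low counts, 28.2% were higher and 29.4% lower in number 1 than in numbers 2 and 3 (edgeR with the genotype as a covariate, adjusted p under 0.05). The numbers run through both groups, and deviations from the group mean correlated across genes between KO and WT libraries of the same number (0.854, 0.604 and 0.580 for numbers 1, 2 and 3), so the replicate number was also fitted as a block. Numbers 2 and 3 were not told apart, with 0.633 for KO 3 with WT 2 and 0.578 for KO 2 with WT 3. Deviations within a group cancel out, so a shift of number 1 shared by both groups by itself raises the values among numbers 2 and 3. These correlations therefore cannot show that numbers 2 and 3 are pairs. KO 2 and KO 3 were the closest pair, with 19.5% of genes differing beyond the 95% limit of counting noise, where counting alone gives 5%. For WT 2 and WT 3 that share was 55.6%, and for number 1 against number 2 or 3 it was 76.7% to 77.7% in KO and 78.8% to 80.8% in WT. Markers of neural stem cells were abundant in every library, with their summed level at 9993 to 11751 CPM in KO and 10017 to 11815 CPM in WT. Summed microglial markers stayed at 2.19 to 2.85 CPM in KO and 1.80 to 3.62 CPM in WT, and summed endothelial markers at 1.67 to 2.38 CPM in KO and 1.64 to 2.46 CPM in WT.

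Promoter sequences are shown for 3 of the vesicle and granule genes because their promoters hold a CRE or an RE1 core, and because Scg2 was the member with the widest gap between library numbers. Each is the RefSeq window from 250 bases before to 50 bases after the transcription start on GRCm38.p6, read 5′ to 3′ on the gene's own strand, with the matched motif in capitals. Scg2 lies at chr1:79439977-79440276 on the minus strand, Chgb at chr2:132781392-132781691 on the plus strand and Syn1 at chrX:20920869-20921168 on the minus strand.
Scg2: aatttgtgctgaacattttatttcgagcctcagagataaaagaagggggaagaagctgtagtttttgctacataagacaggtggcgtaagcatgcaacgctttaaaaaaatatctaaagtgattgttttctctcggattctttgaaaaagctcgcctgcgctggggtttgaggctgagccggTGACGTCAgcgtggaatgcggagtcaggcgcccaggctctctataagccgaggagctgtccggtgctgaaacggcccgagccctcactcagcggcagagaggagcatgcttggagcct
Chgb: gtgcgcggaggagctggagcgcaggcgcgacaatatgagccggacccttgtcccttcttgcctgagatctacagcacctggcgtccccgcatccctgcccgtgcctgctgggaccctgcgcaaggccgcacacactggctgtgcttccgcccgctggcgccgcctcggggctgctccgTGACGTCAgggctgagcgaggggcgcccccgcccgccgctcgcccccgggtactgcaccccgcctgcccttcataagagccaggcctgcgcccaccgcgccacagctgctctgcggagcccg
Syn1: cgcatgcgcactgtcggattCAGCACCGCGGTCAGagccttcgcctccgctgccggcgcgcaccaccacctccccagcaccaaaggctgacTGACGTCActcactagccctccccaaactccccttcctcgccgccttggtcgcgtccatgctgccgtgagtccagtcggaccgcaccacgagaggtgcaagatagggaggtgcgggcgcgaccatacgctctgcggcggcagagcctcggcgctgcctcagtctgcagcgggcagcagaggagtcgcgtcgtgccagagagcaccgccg
The CRE was searched as TGACGTCA and the RE1 core as CAG, any base, ACC, any 2 bases, GG, any base and CAG, on both strands, in the 65 windows that the RefSeq table held for 32 of the 48 genes. The CRE began at position -68 in Scg2, -72 in Chgb and -159 in Syn1, counted from the start. It was in 6 of the 65 windows (9.23%), 3 of which are overlapping windows of Celf3 that share a match, and in 1.79% of all 32851 promoter windows. The CRE holds a CpG, and the 65 windows were richer in CpG (median 11, beside 7 over all windows). Their median GC was 56.67%, beside 52.67%, and the difference in CRE share was not tested against composition. The RE1 core began at position -230 in Syn1 and was in 2 of the 65 windows, the other being a window of Slc17a6, and in 0.0974% of all windows. The match in capitals near the 5′ end of the Syn1 window is the RE1 core, and the second is the CRE. These matches describe the letters of the windows and say nothing of binding in these cells.

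In a neural stem cell culture the levels of these genes spanned a wide range. Per kilobase of exon, Gap43, a growth cone protein, was highest, at 161 ± 36.7 CPM per kilobase in KO and 175 ± 42.0 CPM per kilobase in WT, close to the stem cell marker Nes (172 ± 87.0 in KO and 163 ± 93.5 in WT). Syt11, an atypical synaptotagmin that does not sense calcium, followed at 90.2 ± 22.3 in KO and 102 ± 16.9 in WT, and Map2, a dendritic microtubule-binding protein, at 38.0 ± 5.71 in KO and 33.9 ± 8.26 in WT on the same scale. The neighbours Map2, Nlgn2 (36.3 ± 13.3 in KO and 32.4 ± 10.4 in WT) and Ncam1 (34.1 ± 5.51 in KO and 31.4 ± 4.002 in WT) did not differ beyond their spread (all SD, n = 3). Other members lay far lower, and genes of neurons stood at both ends of the range, with Vamp2 at 17.7 ± 3.35 in KO and 18.3 ± 3.72 in WT and Syt1 at 4.79 ± 1.99 in KO and 8.99 ± 3.49 in WT. Snap25, a SNARE protein of the presynaptic membrane, reached 0.130 ± 0.0424 in KO and 0.175 ± 0.0288 in WT, and Stmn2, a growth cone stathmin, 0.0653 ± 0.0461 in KO and 0.179 ± 0.138 in WT (CPM per kilobase). Tubb3 and Dcx, which mark newborn neurons, were at 3.53 ± 1.39 and 0.507 ± 0.0480 in KO and at 3.83 ± 1.63 and 0.543 ± 0.0987 in WT. The stem cell markers Fabp7 and Vim reached 1670 and 963 in KO and 1598 and 968 in WT on this scale.

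**Figure D1:**
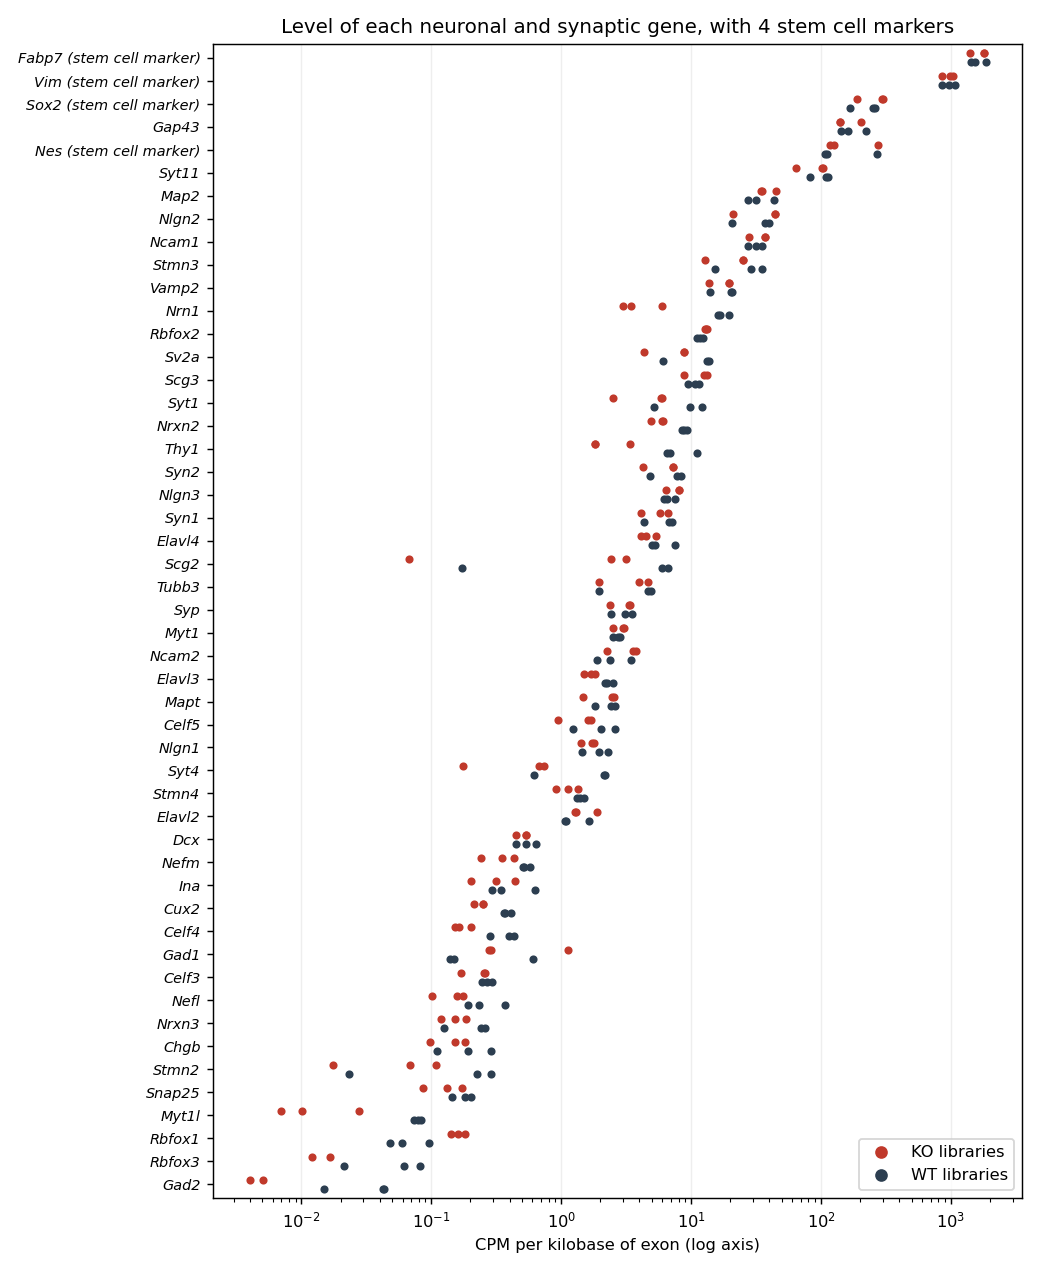
CPM per kilobase of exon (log axis) in each KO library (red) and each WT library (dark) for the neuronal and synaptic genes with counts in both groups, ordered by the WT mean, with 4 stem cell markers for scale. The genes run from Gap43, near Nes, down to Rbfox3 and Gad2, and values at 0 are not drawn.

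The 4 genes that failed the filter on low counts included mature neuron markers. Slc17a6, the vesicular glutamate transporter of subcortical neurons, had 0 counts in all 6 libraries, which allows at most 3 counts per library, or 0.0640 to 0.0898 CPM over the range of depths. Slc32a1, the vesicular GABA transporter, had 1 count in all, in WT 1. Rbfox3, the antigen NeuN of mature neurons, had 4, 3 and 0 counts in KO and 22, 5 and 17 counts in WT. Gad2, a GABA-synthesizing enzyme of nerve terminals, had 0, 1 and 1 counts in KO and 4, 10 and 12 counts in WT, so that its KO libraries lay below its WT libraries at very few reads. The KO to WT ratio over summed counts scaled to depth was 0.0864 for Gad2 (exact binomial 95% interval 0.00994 to 0.345) and 0.179 for Rbfox3 (0.0679 to 0.400). These intervals cover counting error only and hold no replicate check. In edgeR without the filter and without a block, neither was called (adjusted p = 0.532 for Gad2 and 0.845 for Rbfox3). Nor was either called by edgeR with KO 2 and KO 3 summed and number 1 as a block (0.0727 and 0.0912).

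When KO was set against WT, the main fit, edgeR without a block, called none of the 44 testable genes. In an alternative fit that took the replicate number as a block, 16 fell and 2 rose, and these are the calls named below. Here and below, fell and rose mean called lower or higher in that blocked fit, unless another fit is named. The falls were largest for Myt1l, a neuronal transcription factor, Nrn1, a surface protein that promotes neurite growth, Thy1, a GPI-anchored surface protein of neurons, and Syt4, an atypical synaptotagmin. Rbfox1, a splicing factor, and Gad1, a GABA-synthesizing enzyme, rose. Of the 6 members at 100 CPM or more in WT, Nrxn2, a presynaptic adhesion receptor, fell, and Map2, Gap43, Syt11, Ncam1 and Nlgn2 were not called. In bulk RNA, fewer cells of a type and less RNA per cell cannot be told apart.

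The 16 genes that fell are 36.4% of the 44 tested, while 6.46% of all 13683 tested genes were called lower in the same fit. The 2 that rose are 4.55%, near the 3.33% of all genes. Members were chosen with earlier results of these data known, so the share that fell cannot show an enrichment. The median log2 fold change was -0.28 over the 44 genes and 0.0068 over all genes. The test was edgeR's quasi-likelihood F-test, with p-values adjusted by the Benjamini-Hochberg method. Without the block it called no member and 8 of all genes (0.0585%). An unadjusted p under 0.05 was found there for 9 members and for 795 of all 13683 genes. DESeq2 without the block called 5 members, all lower: Celf4, Myt1l, Nrxn2, Nrn1 and Thy1. Over all genes it called 1.45% lower and 0.468% higher. DESeq2 with the block called 12 members lower (5.69% of all genes) and 2 higher (3.95%). Of these 14, 13 were among the 18 called by edgeR with the block, and the 2 higher ones were Gad1 and Ncam2, not Rbfox1. With numbers 2 and 3 alone, that is with number 1 left out and no block, 9 members fell (3.57% of all genes) and 0 rose (1.82%). In that fit 25 of 45 members and 2885 of 13764 genes had an unadjusted p under 0.05. With KO 2 and KO 3 summed as 1 library, and number 1 as the block, 9 fell (3.8%) and 1 rose (1.13%).

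**Figure D2:**
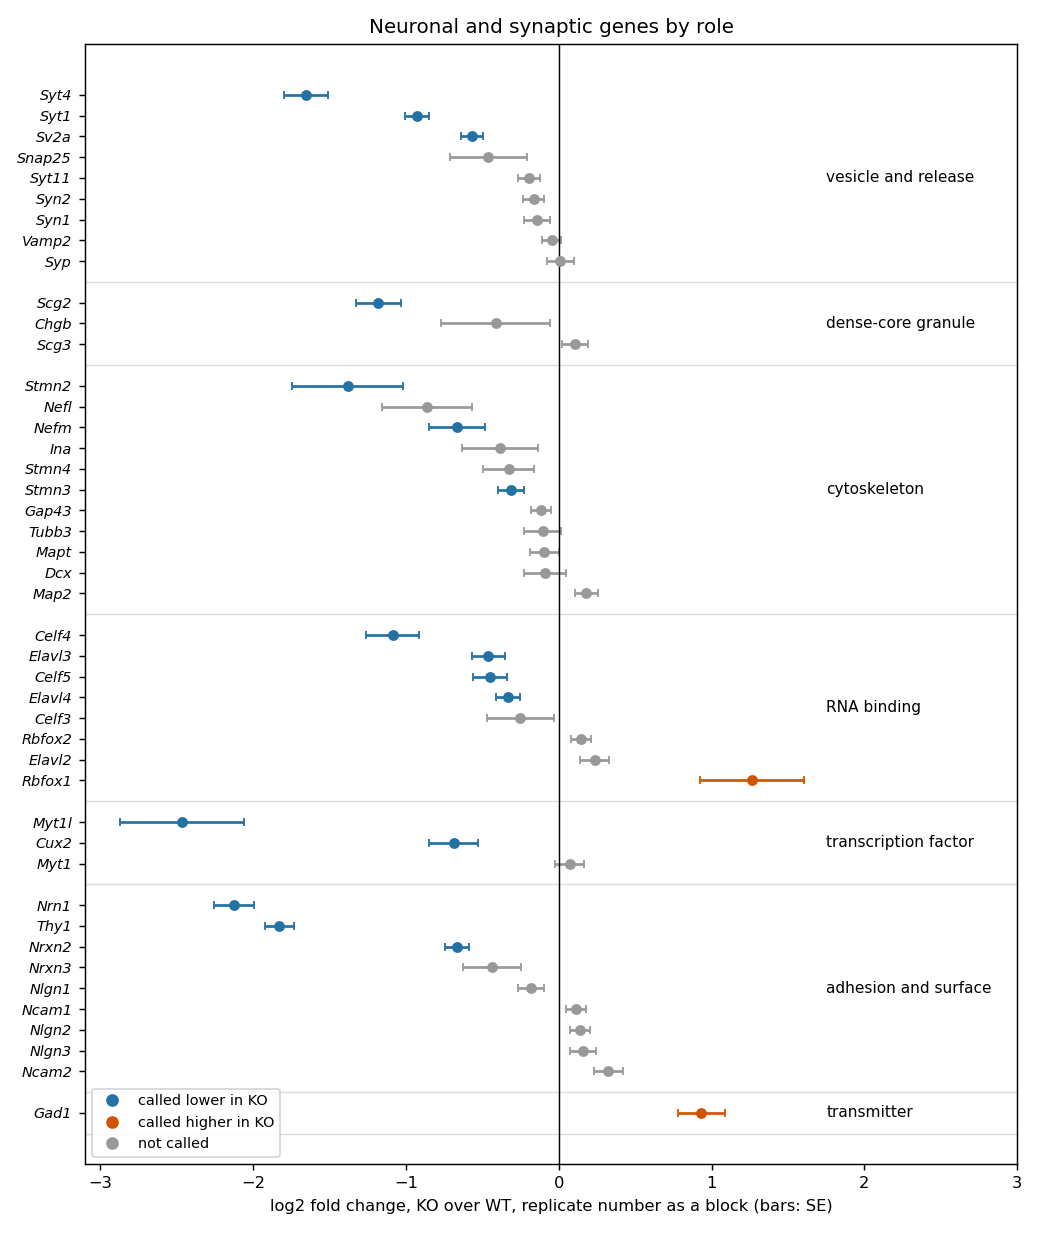
Log2 fold change of KO over WT for the 44 tested genes, grouped by role, from edgeR with a block for the replicate number. Bars are the SE over 6 libraries. Blue genes (16) were called lower, orange genes (2) higher and grey genes (26) were not called.

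Among 9 genes of the synaptic vesicle and its release, Syt1, Syt4 and Sv2a fell (33.3%, beside 6.46% of all genes). None rose, beside 3.33% of all genes, and in role groups this small the lack of a rise says little. Syt1, the calcium sensor of fast release, had 20.8, 50.0 and 49.0 CPM in KO 1, 2 and 3, against 43.1, 100.2 and 81.5 CPM in WT 1, 2 and 3. Syt4 had 0.681, 2.85 and 2.62 CPM in KO, against 2.39, 8.38 and 8.31 CPM in WT. Sv2a, a vesicle glycoprotein that binds levetiracetam, had 20.2, 40.9 and 41.0 CPM in KO, against 28.3, 63.7 and 61.1 CPM in WT. For each of these 3 genes the library numbered 1 was the lowest of its group, WT 1 lay within the KO range, and the groups overlapped, whereas within each number KO lay below WT. The log2 fold changes were -0.93 ± 0.0797 for Syt1, -1.65 ± 0.145 for Syt4 and -0.57 ± 0.0722 for Sv2a (SE), with adjusted p of 0.000112, 0.000122 and 0.000949 in edgeR with the block and 0.859 to 0.999 without it. All 3 were also called when number 1 was left out and when KO 2 was summed with KO 3. Exons of Syt4 overlap those of Gm26658 on the opposite strand over 566 bases.

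The other vesicle genes were not called in either fit. Vamp2, the vesicle SNARE, had 52.7, 74.9 and 74.7 CPM in KO, against 53.4, 78.8 and 77.05 CPM in WT, a log2 fold change of -0.046 ± 0.0636 with the block. Syt11 had 335, 539.9 and 533 CPM in KO, against 429.7, 571 and 591 CPM in WT, a log2 fold change of -0.20 ± 0.0730. The groups of both genes overlapped. Syp, a vesicle membrane protein, Syn1 and Syn2, which tether vesicles, and Snap25 had log2 fold changes of 0.0093, -0.14, -0.16 and -0.46 with the block. Of the 9 vesicle genes, 8 were lower in the libraries numbered 1 than in numbers 2 and 3 in the edgeR fit with the genotype as a covariate, Snap25 being the exception.

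Scg2, a granin of dense-core granules, was the only one of 3 granule genes that fell (33.3%, beside 6.46% of all genes). It had 0.170, 7.92 and 6.12 CPM in KO, against 0.435, 14.9 and 16.6 CPM in WT. Both libraries numbered 1 were near 0 in Scg2 and the other 4 were not, so that KO 2 and KO 3 lay above WT 1 while each KO library lay below the WT library of its number. It changed by -1.18 ± 0.150 on the log2 scale (SE), at an adjusted p = 0.000958 in edgeR with the block and 0.999 without it, and number 1 differed from numbers 2 and 3 by -5.22 ± 0.212 on the log2 scale. Chgb, a granin that shares the CRE with Scg2, was at 0.268, 0.495 and 0.416 CPM in KO and at 0.304, 0.521 and 0.784 CPM in WT, and Scg3, a granin-binding protein, at 31.6 ± 6.52 CPM in KO and 29.0 ± 2.86 CPM in WT. Neither was called for KO against WT, and both were lower in number 1, by -0.96 ± 0.360 for Chgb and -0.39 ± 0.0894 for Scg3 (log2, SE).

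Of 11 cytoskeletal and growth genes, Stmn2, Stmn3 and Nefm fell (27.3%, beside 6.46% of all genes) and none rose (3.33% of all genes). None of these 3 calls was kept when number 1 was left out without a block or when KO 2 was summed with KO 3. With number 1 left out of the blocked edgeR fit, Stmn2 stayed called (adjusted p = 0.0189) and Stmn3 and Nefm did not. Stmn3, a microtubule-destabilizing stathmin, had 14.6, 28.6 and 28.5 CPM in KO, against 17.4, 32.7 and 39.6 CPM in WT. Stmn2 had 0.0973, 0.613 and 0.387 CPM in KO, against 0.130, 1.26 and 1.61 CPM in WT. Its values rest on 4, 26 and 13 counts in KO and 6, 51 and 76 counts in WT. Nefm, the medium neurofilament chain, had 1.39, 2.52 and 2.02 CPM in KO, against 2.91, 3.32 and 3.01 CPM in WT. Of these 3, Nefm alone showed no overlap between the groups. The log2 fold changes were -0.31 ± 0.0838, -1.38 ± 0.363 and -0.66 ± 0.184 (SE) for Stmn3, Stmn2 and Nefm, with adjusted p of 0.0450, 0.0406 and 0.0492 in edgeR with the block. Exons of Nefm and Nefl, the light chain, overlap on opposite strands over 1108 bases in GENCODE vM21, and since the sources used here do not give the strand setting of the counts, reads of that stretch may count for either. Nefl had a log2 fold change of -0.86 ± 0.297 and was not called (adjusted p = 0.104 in edgeR with the block).

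The abundant members of the cytoskeletal group were not called. Map2 had 734, 568 and 575 CPM in KO, against 710.2, 516 and 448 CPM in WT, and Gap43 had 310.4, 215 and 213 CPM in KO, against 339, 218 and 244 CPM in WT. The KO and WT ranges of both genes overlapped, and the libraries numbered 1 were the highest of their groups. Log2 fold changes with the block were 0.18 ± 0.0757 for Map2 and -0.12 ± 0.0642 for Gap43 (SE). Tubb3, Dcx, Mapt, which encodes tau, Stmn4 and the neuronal intermediate filament gene Ina had log2 fold changes between -0.38 and -0.091 with the block. Tubb3 was at 3.67, 8.65 and 7.43 CPM in KO and 3.65, 8.68 and 9.13 CPM in WT, nearly the same in KO and WT for numbers 1 and 2.

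Among 8 tested genes of neuronal RNA-binding proteins, Elavl3, Elavl4, Celf4 and Celf5 fell (50%, beside 6.46% of all genes). Rbfox1 alone rose (12.5%, beside 3.33% of all genes), at few counts. Celf4, a CUG-binding splicing and translation regulator, had 1.31, 1.72 and 1.40 CPM in KO, against 2.41, 3.72 and 3.37 CPM in WT. Its relative Celf5 had 6.35, 10.8 and 11.2 CPM in KO, against 8.18, 17.4 and 13.6 CPM in WT. The groups did not overlap in Celf4 and overlapped in Celf5. The log2 fold changes were -1.09 ± 0.176 and -0.45 ± 0.113 (SE), with adjusted p of 0.00387 and 0.0343 in edgeR with the block. Celf3, the third family member in this list, was at -0.25 ± 0.221 and was not called. Elavl3, a neuronal Hu protein that binds AU-rich transcripts, had 10.3, 12.5 and 11.7 CPM in KO, against 17.1, 14.9 and 15.4 CPM in WT, with every KO library lower. Elavl4, another Hu protein, had 29.1, 24.0 and 22.2 CPM in KO, against 40.2, 28.5 and 26.9 CPM in WT, with KO 1 above WT 2 and WT 3. The changes were -0.46 ± 0.111 for Elavl3 and -0.33 ± 0.0794 for Elavl4 (log2, SE), with adjusted p of 0.0283 and 0.0278 in edgeR with the block. The third Hu gene in this list, Elavl2, had a log2 fold change of 0.23 ± 0.0956 and was not called (adjusted p = 0.168 in edgeR with the block).

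Rbfox1 rose at a low level: it was at 0.706, 0.802 and 0.624 CPM in KO, against 0.261, 0.421 and 0.212 CPM in WT. These values rest on 29, 34 and 21 counts in KO and 12, 17 and 10 counts in WT, and the groups did not overlap. It changed by 1.27 ± 0.342 on the log2 scale (SE), at an adjusted p = 0.0451 in edgeR with the block, 0.507 without it and 0.189 with numbers 2 and 3 alone. DESeq2 with the block did not call Rbfox1 (adjusted p = 0.158). Its abundant relative Rbfox2 had 103.7, 107 and 107.2 CPM in KO, against 96.1, 100.4 and 90.2 CPM in WT. Every KO library was higher in Rbfox2 as well, but the log2 fold change of 0.15 ± 0.0648 was not called (adjusted p = 0.198 in edgeR with the block). Of the RNA-binding calls, Celf4 alone was kept when number 1 was left out without a block and when KO 2 was summed with KO 3. In the blocked edgeR fit without number 1, Celf4 and Celf5 stayed called (adjusted p = 0.0029 and 0.0475). Exons of Celf5 overlap those of Gm16105 on the opposite strand over 543 bases, and exons of Elavl3 overlap those of Gm49318 on the same strand.

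Of the 3 transcription factors, Myt1l and Cux2 fell (66.7%, beside 6.46% of all genes), while Myt1, a zinc finger relative of Myt1l, was not called. Myt1l, which represses non-neuronal genes in neurons, had 4, 6 and 13 counts in KO, against 47, 47 and 52 counts in WT. That is 0.0973, 0.141 and 0.387 CPM in KO, against 1.02, 1.17 and 1.10 CPM in WT, with no overlap. Cux2, a homeobox factor of upper-layer cortical neurons and their progenitors, had 2.14, 2.50 and 2.50 CPM in KO, against 4.15, 3.69 and 3.62 CPM in WT, also with no overlap. The log2 fold changes were -2.46 ± 0.408 for Myt1l and -0.69 ± 0.160 for Cux2 (SE), with adjusted p of 0.00437 and 0.0246 in edgeR with the block and 0.269 and 0.447 without it. Myt1l stayed called with numbers 2 and 3 alone (adjusted p = 0.0493 in edgeR) and Cux2 did not (0.105). Myt1 had 18.1, 21.4 and 21.7 CPM in KO, against 19.7, 20.4 and 17.99 CPM in WT, a log2 fold change of 0.073 ± 0.0942 with the block. Exons of Myt1l overlap those of Gm20208 on the opposite strand over 633 bases.

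Among 9 adhesion and surface genes, Nrn1, Thy1 and Nrxn2 fell (33.3%, beside 6.46% of all genes) and none rose (3.33% of all genes). In these 3 the groups did not overlap, with KO below WT, as in 6.71% of all genes. Nrn1 had 13.4, 7.76 and 6.69 CPM in KO, against 44.3, 36.0 and 37.7 CPM in WT. Thy1 had 10.0, 5.42 and 5.44 CPM in KO, against 33.4, 19.7 and 20.4 CPM in WT. Nrxn2 had 67.6, 82.8 and 84.2 CPM in KO, against 123, 129 and 118 CPM in WT. In Nrn1 and Thy1 the libraries numbered 1 were the highest of their group, which is the reverse of the vesicle genes. The log2 fold changes were -2.13 ± 0.131, -1.83 ± 0.0938 and -0.66 ± 0.0778 (SE) for Nrn1, Thy1 and Nrxn2, with adjusted p of 1.69e-05, 1.25e-05 and 0.000621 in edgeR with the block and 0.114, 0.194 and 0.180 without it. All 3 stayed called when number 1 was left out and when KO 2 was summed with KO 3. Exons overlap on the opposite strand with Fars2 over 501 bases for Nrn1 and with Gm14964 and Slc22a12 over 889 bases for Nrxn2.

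The neuroligins, which are postsynaptic partners of neurexins, and the neural cell adhesion molecules were not called by edgeR. Nlgn2, a neuroligin of inhibitory synapses, had 121, 254.5 and 254 CPM in KO, against 118, 230.1 and 214 CPM in WT. Ncam1 had 240.2, 323 and 323 CPM in KO, against 236, 306 and 274 CPM in WT. Both overlapped between the groups, and in both the libraries numbered 1 were the lowest. With the block their log2 fold changes were 0.14 ± 0.0652 and 0.11 ± 0.0666 (SE), and those of Nlgn1, Nlgn3, Ncam2 and Nrxn3 were -0.18, 0.16, 0.32 and -0.44. Ncam2 was nearest to a call among the genes of this group that did not pass (adjusted p = 0.0606 in edgeR with the block), and DESeq2 with the block called it higher (log2 fold change 0.33 ± 0.116, SE, adjusted p = 0.0430).

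Of the transmitter genes Gad1 alone could be tested. It had 355, 93 and 71 counts in KO, against 214, 46 and 50 counts in WT, or 8.64, 2.19 and 2.11 CPM in KO, against 4.65, 1.14 and 1.06 CPM in WT. The libraries numbered 1 held most of it in both groups, and WT 1 lay above KO 2 and KO 3, while within each number KO lay above WT. It changed by 0.93 ± 0.153 on the log2 scale (SE), at an adjusted p = 0.00423 in edgeR with the block, 0.999 without it, 0.0522 when number 1 was left out without a block and 0.0136 when KO 2 was summed with KO 3. In the blocked edgeR fit without number 1 the adjusted p was 0.0365. The values of Gad2, the other GABA-synthesizing enzyme, lay the other way, as given above, at 2 counts in KO and 26 in WT.

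**Figure D3:**
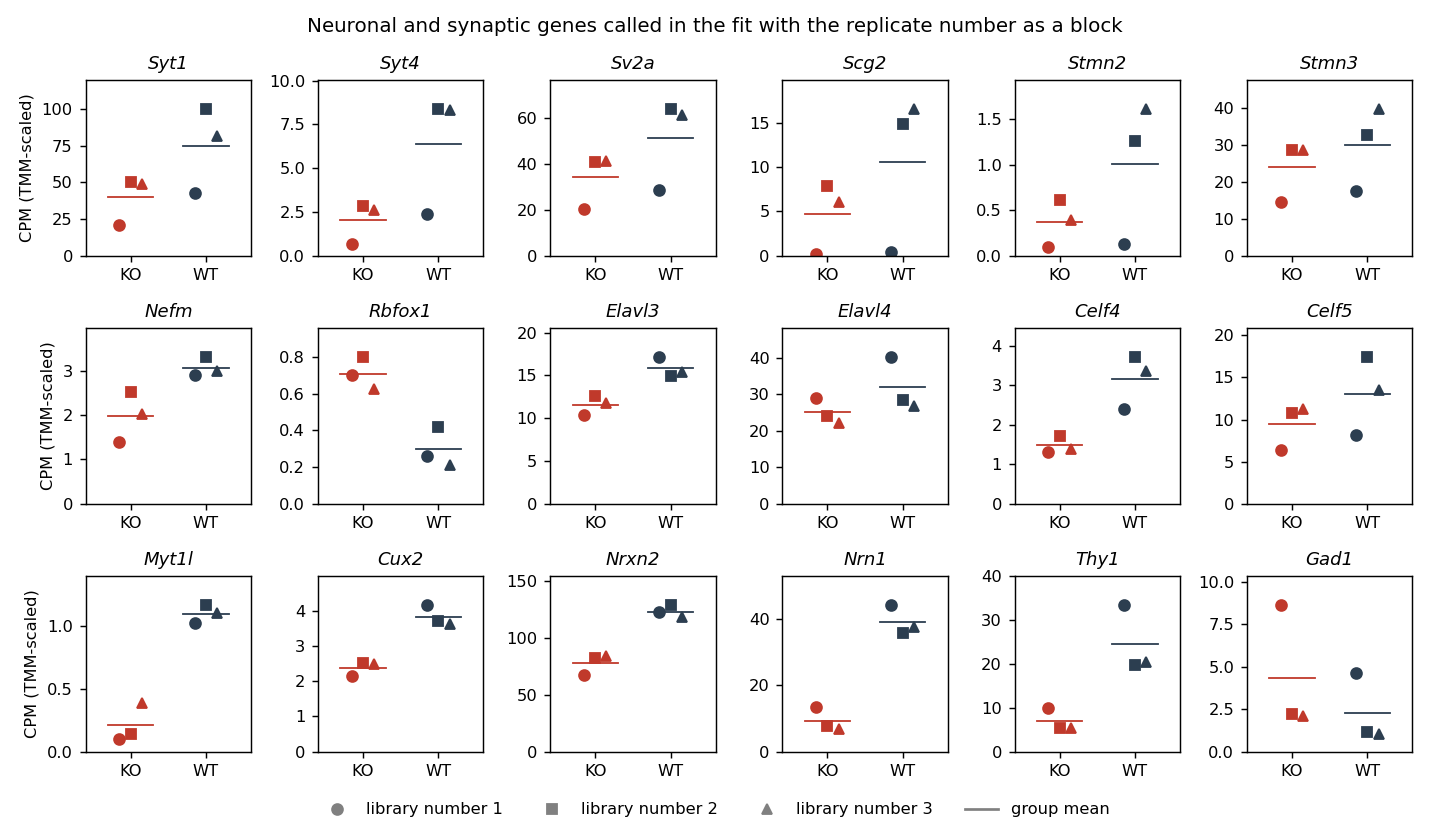
CPM in each library for the 18 genes called with the block, KO at the left and WT at the right of each panel, with group means as lines and library numbers as symbols. In 9 of the panels the groups do not overlap (Nefm, Rbfox1, Elavl3, Celf4, Myt1l, Cux2, Nrxn2, Nrn1 and Thy1). The circles of number 1 are the lowest of each group in Syt1, Syt4, Sv2a, Scg2, Stmn2, Stmn3 and Celf5, and also in Nefm, Celf4 and Myt1l.

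Within each library number the direction of the called genes was the same. All 16 genes that fell were lower in KO than in WT in numbers 1, 2 and 3 alike, and both genes that rose were higher in all 3 numbers. Of the 26 members not called, 18 also kept the same direction in all 3 numbers. The agreement among called genes is a description, since the fit with the block uses these same differences. The size varied most in Myt1l, with log2 ratios of -2.88, -2.68 and -1.40 in numbers 1, 2 and 3, and in Stmn2, with -0.30, -0.99 and -1.93. It varied least in Gad1 (0.89, 0.91 and 0.96) and Sv2a (-0.48, -0.64 and -0.58). Over the 44 genes the median log2 ratio was -0.28, -0.18 and -0.25 in numbers 1, 2 and 3, beside 0.00032, 0.018 and -0.020 over all genes. Counted over all tested members, groups did not overlap with KO below WT in 9 (all genes 6.71%) and with KO above WT in 2 (all genes 4.49%).

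**Figure D4:**
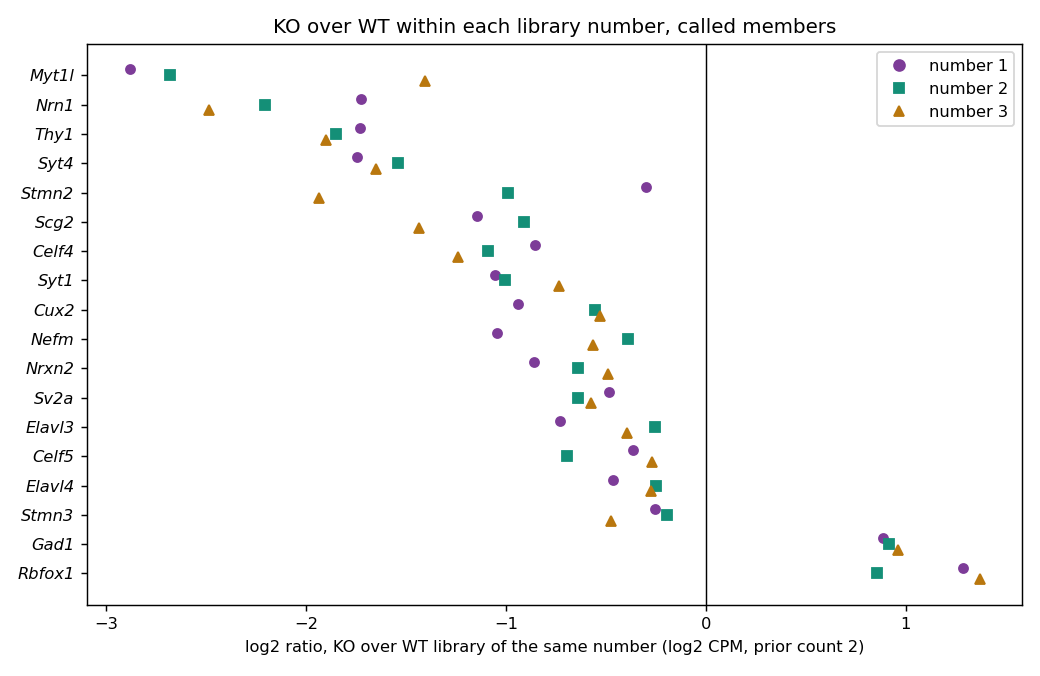
Log2 ratio of KO over WT between libraries of the same number for the 18 called genes (log2 CPM with a prior count of 2). All points of Gad1 and Rbfox1 lie right of 0 and all points of the 16 other genes lie left of it.

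Differences between library numbers were larger than those between KO and WT for many of the members. In the edgeR fit with the genotype as a covariate, 21 of the 44 genes were lower and 8 higher in number 1 than in numbers 2 and 3, beside 29.4% and 28.2% of all genes. The members lower in number 1 included 8 of 9 vesicle genes and all 3 granule genes. Those higher in number 1 were Gad1 (2.04 ± 0.129), Ina (0.87 ± 0.230), Thy1 (0.80 ± 0.0818), Elavl2 (0.57 ± 0.0841), Gap43 (0.55 ± 0.0608), Nrn1 (0.55 ± 0.131), Map2 (0.46 ± 0.0759) and Elavl4 (0.44 ± 0.0782, log2, SE). After Scg2, the widest gaps downward were in Stmn2 (-3.05 ± 0.438) and Syt4 (-1.87 ± 0.146). Myt1l, Cux2, Celf4, Nrxn2, Nefm, Elavl3 and Rbfox1 were called for KO against WT and not for number 1 against numbers 2 and 3. What sets the libraries numbered 1 apart is not given in the labels, and its part in the KO difference was not tested beyond the block and the libraries left out.

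**Figure D5:**
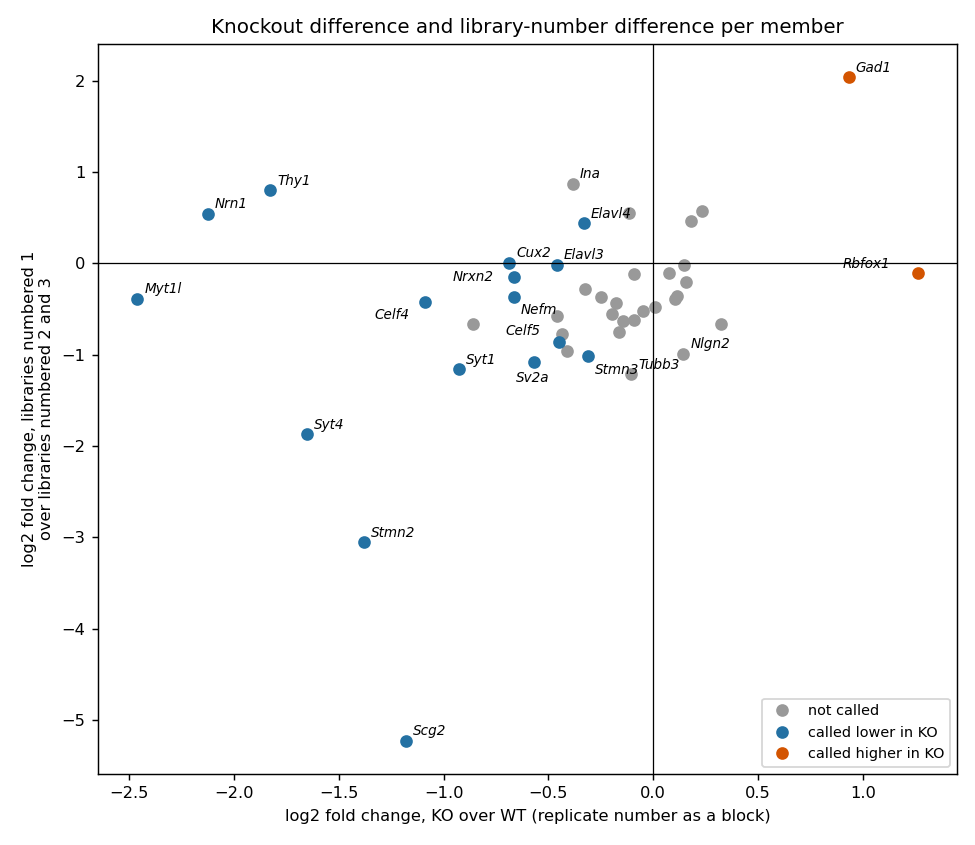
Log2 fold change of KO over WT (horizontal axis, replicate number as a block) and of libraries numbered 1 over libraries numbered 2 and 3 (vertical axis, genotype as a covariate) for the 44 tested genes, coloured by their call in KO against WT. Scg2, Stmn2, Syt4 and Syt1 lie low on both axes, Nrn1 and Thy1 lie low in KO and high in number 1, and Gad1 lies high on both.

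Other neuronal genes, taken from lists of relatives and partners of these 48, held 140 tested genes, of which 27 (19.3%) fell and 5 (3.57%) rose with the block. Over all genes 6.46% fell and 3.33% rose in the same fit, so the share that rose was near that of all genes. These lists too were chosen with earlier results of these data known, so the share that fell cannot show an enrichment. Of 48 vesicle and release genes 12 (25%) fell and 2 (4.17%) rose. Cadps, a priming factor of dense-core granules, was at 14.7 ± 3.83 CPM in KO and 27.4 ± 6.34 CPM in WT, Scg5, a granule chaperone, at 3.57 ± 0.996 CPM in KO and 8.34 ± 2.51 CPM in WT, and Cplx2, a complexin that clamps SNARE complexes, at 80.4 ± 3.70 CPM in KO and 124 ± 26.8 CPM in WT. Dnm1, the neuronal dynamin of vesicle retrieval, was at 4.30 ± 2.20 CPM in KO and 7.84 ± 4.68 CPM in WT (all SD, n = 3). The log2 fold changes of these 4 were -0.91 ± 0.0906, -1.22 ± 0.125, -0.61 ± 0.0955 and -0.81 ± 0.137 (SE), in that order. Of 32 adhesion and postsynaptic genes 9 (28.1%) fell and 1 (3.13%) rose. Nfasc, an adhesion protein of axon initial segments and nodes, changed by -1.06 ± 0.121, Lrrtm3, a postsynaptic partner of neurexins, by -0.84 ± 0.113, the postsynaptic scaffold gene Shank2 by -0.68 ± 0.134 and the adhesion gene Cadm2 by -0.40 ± 0.0868 (log2, SE).

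Transmitter receptors and transporters were called in both directions, with 5 of 17 (29.4%) lower and 1 (5.88%) higher. The AMPA receptor gene Gria1 was at 0.372 ± 0.148 CPM in KO and 1.44 ± 0.591 CPM in WT, and the GABA-A receptor gene Gabrb2 changed by -2.19 ± 0.398 (log2, SE). Slc6a11, a GABA transporter of glia, was at 266 ± 25.1 CPM in KO and 124 ± 43.8 CPM in WT, a log2 fold change of 1.15 ± 0.114 (SE). Of the GABA genes named here, Slc6a11 and Gad1 were thus called higher and Gabrb2 lower. Gad2, which was not tested in that fit, had 2 counts in KO and 26 in WT. The cytoskeletal list had 1 lower gene, Tubb4a (-0.39 ± 0.0905), and 1 higher, Basp1 (0.23 ± 0.0619), among 27 (3.70% each). These shares are near or under the 6.46% lower and 3.33% higher of all genes. The 16 RNA-binding paralogs had none called in edgeR with or without the block and 0 called by DESeq2. Of these 16, 3 had an unadjusted p under 0.05 with the block, beside 3246 of all 13683 genes. Of 16 genes of REST and its corepressors, only Rcor2 (6.25%) rose (0.26 ± 0.0670, log2, SE) and none fell. All of these calls are from edgeR with the block, and without it no gene of these lists was called by edgeR. Without the block 23 of the 140 neuronal genes had an unadjusted p under 0.05 in edgeR, beside 795 of all 13683 genes. DESeq2 without the block called 9 of the 140, beside 262 of all genes.

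Some markers of other cell types were also called, where 6.46% of all genes were called lower and 3.33% higher with the block. Of 9 astrocyte markers 5 fell and 2 rose with the block, and their summed level was 1049 to 2714 CPM in KO and 870 to 2427 CPM in WT. The lowest sum of each group was in number 1, where 6 of the 9 were lower than in numbers 2 and 3 (29.4% of all genes). Of 9 tested oligodendrocyte lineage markers 2 fell and 2 rose, with summed levels of 3550 to 3787 CPM in KO and 3569 to 4322 CPM in WT. Of these 4, Nkx2-2, a transcription factor of the lineage, was also called lower (-1.23 ± 0.0975) and Bcas1, a myelin-associated gene, higher (1.19 ± 0.0927, log2, SE) in edgeR without the block (adjusted p = 0.0316 for both). Of 13 stem cell markers 1 (7.69%) fell, Prom1, and 1 rose, Hes5. Of 8 proliferation markers none fell and 2 rose, at summed levels of 2455 to 3434 CPM in KO and 1842 to 3196 CPM in WT. The highest sum of each group was in number 1, where all 8 were higher than in numbers 2 and 3 (28.2% of all genes). Among 4 tested mural and mesenchymal markers 1 fell. The part of these cell types in the neuronal differences was not tested.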

How the data were processed

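RNA-seq counts of 6 libraries (3 KO, 3 WT) were used as deposited. The authors deposited 1 table of raw counts, whole numbers by gene symbol with no scaling. FastQC, cutadapt, Trim Galore, Bowtie2 and RSEM were used with mm10, per the submitters' processing notes. Their versions, the annotation and the strand setting were not given in the sources used here, nor was the step from RSEM estimates to whole counts. Groups and numbers came from sample titles. Total counts were 33413444 to 46890314 per library.

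Genes were filtered with filterByExpr (13683 kept) and scaled by TMM, and a robust quasi-likelihood model was fitted over all genes in edgeR 4.0.16 (R 4.3.3), two-sided, with Benjamini-Hochberg adjustment and a threshold of 0.05. The SE is the log2 fold change over the square root of F. CPM is TMM-scaled. DESeq2 1.42.0 was an alternative. The model was tested on simulated data.

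The main fit has no block. Titles share numbers 1 to 3, and same-numbered KO and WT libraries deviated together (correlations of 0.854, 0.604 and 0.580, all over 0.1), so the number was treated as pairing. This comes from the correlations and not from the labels. Numbers 2 and 3 were not told apart (0.633 for KO 3 with WT 2, 0.578 for KO 2 with WT 3). The labels do not name separate embryos or cultures, so p-values measure only how these samples vary, and that variation may be technical.

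Members, lists and tests were chosen with earlier results of these data known. Described in full are members called with or without the block and the 2 with the highest CPM per role, and from each list of other neuronal or REST genes up to 4 called genes by lowest p, or the 2 with the highest CPM; 1 gene that the rule names is not reported here. Qk and Ptbp1, named by this rule, had log2 fold changes of -0.02 and 0.16 with the block and were not called. Positions and exon lengths are from GENCODE vM21 (GRCm38, the assembly of mm10), where all 48 symbols matched 1 gene. Promoters are from RefSeq on GRCm38.p6.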

Additional observations from a re-analysis of the deposited data

How the results depend on the processing

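Over all genes, 8 were called in edgeR without a block, 1340 with the replicate block, 1445 with number 1 as the block, 743 with numbers 2 and 3 alone, 688 with KO 2 and KO 3 summed and number 1 as the block, 262 in DESeq2 and 1268 in DESeq2 with the replicate block. Leaving out 1 library without a block gave 0 to 21 calls, the 21 without WT 1 and 0 without any of the other 5, where 499 to 864 had an unadjusted p under 0.05. Leaving out both libraries of a number in the fit with the replicate block, an alternative chosen after seeing the data, gave 1037 to 1456 (1248 without number 2). Of the neuronal and synaptic genes, 0 were called without a block, 18 with the replicate block, 17 with number 1 as the block, 9 with numbers 2 and 3 alone, 10 with KO 2 and KO 3 summed, 5 in DESeq2 and 14 in DESeq2 with the replicate block, and 12 to 18 when a number was left out of the blocked fit, the lowest without number 1. RLE scaling, upper-quartile scaling, no filter and leaving out any 1 library kept the count at 0 in edgeR without a block. Of the 18 block calls, Rbfox1 was lost whichever number was left out, Stmn3 and Nefm without number 1 or 3, Elavl3, Elavl4 and Cux2 without number 1, Celf5 without number 2 and Stmn2 without number 3. The median log2 fold change of tested members, -0.28, was -0.35 to -0.14 when 1 library was left out, the smallest without KO 1, and -0.33 to -0.23 when a number was left out with the block; no other alternative moved it beyond the spread between numbers (SD 0.0516). Leaving out 1 library without a block turned the sign of some genes. Without KO 1 the value was -0.088 for Gad1 (up to 1.99 without another library), 0.017 for Syt11 (down to -0.30), 0.10 for Vamp2 (down to -0.20, with 0.050 without WT 2 and 0.022 without WT 3) and -0.082 for Ptbp1 (up to 0.43). Without WT 1 it was 0.10 for Gap43 (down to -0.32) and -0.073 for Nlgn2 (up to 0.44). Myt1 was at -0.026 without number 3 in the blocked fit. Qk was at 0.00081 with numbers 2 and 3 alone, -0.10 to 0.11 when 1 library was left out (0.091 without KO 1), and 0.010 and 0.043 without number 1 or 2 in the blocked fit. Apart from Gad1 these genes were not called in any fit. The cause was not tested. Depth limits Myt1l, Rbfox1, Stmn2, Gad2 and Rbfox3, which have few counts.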
